A study of Mus musculus with 16 samples.

Results

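The comparison is between 2 mouse CD8 T cell clones called conventional and unconventional in the labels, both stimulated through CD3 with plate-bound antibody (145-2c11) while cyclosporine A and added recombinant cytokines were absent. CD3 is the signalling part of the T cell receptor. According to the labels the conventional clone is sensitive and the unconventional clone resistant to cyclosporine, and a cytokine mixture was used to grow both. The arrays were chosen by their titles, 4 of each clone, which makes 8 of the 16 arrays of the series; on the remaining 8 the clones were stimulated in the presence of cyclosporine A at 1 ug per ml. Each group is a single clone, so that a difference holds for this pair and not for a class of cells. The labels state neither strain, sex nor age of the source animals and do not say that replicates came from separate cultures; the p-values therefore cover the spread among these arrays, possibly a technical one. Unstimulated cells were not analysed here, so that a difference present before activation and a difference in the response to CD3 cannot be told apart.

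CD8 T cells recognise peptide on MHC class I through their receptor, whose signal runs through the kinases LCK and ZAP70 and the adaptors LAT and SLP-76 to calcium, Ras and protein kinase C. Calcium activates the phosphatase calcineurin, the target of cyclosporine A, and through it NFAT transcription factors. Activated CD8 T cells divide, secrete cytokines such as interferon gamma and kill through granules of perforin and granzymes. Clones carry a single receptor each, and their integrins, chemokine receptors and NK cell receptors differ with the tissue and history of the cell they came from.

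All differences are log2 expression of the unconventional minus the conventional clone, on the log2 scale of the deposited probe set values, with the standard error (SE) of the fit; levels are given per array or as mean ± SD. A difference of 1 is 2-fold. A gene was called at a Benjamini-Hochberg adjusted p under 0.05 over all 19938 genes. Levels of different genes are not compared, since probe sets differ in brightness. In bulk RNA, fewer cells with a transcript and less of it per cell cannot be told apart. Of the group means of 1015 olfactory receptor genes, which serve as silent genes here, 95% lay below 4.57. A gene below that level is described as near background, where a fold change understates the change in RNA.

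The clones differed at 8376 of 19938 genes (42%), 4048 higher (20.3%) and 4328 lower (21.7%) in the unconventional clone. With each array centred on its median the split was 4418 higher and 2952 lower. Of the 1015 olfactory receptor genes, 955 of them near background in both clones, 6 were called higher and 94 lower. The lower calls thus include genes that serve as silent genes here. A difference of at least 2-fold was reached by 880 genes higher (4.41%) and 663 lower (3.33%). These shares of all genes stand beside the 2-fold counts below. They include 6605 genes near background in both clones. With only genes of a mean of at least 6 in either clone tested, 812 were at least 2-fold higher and 616 lower. The shares among brighter genes are therefore larger, but were not calculated. Counts of calls of any size stand beside 20.3% and 21.7% of all genes. Among the 8992 genes with a mean of at least 6 over all 16 arrays, 38.6% were called higher and 28% lower. At least 16-fold differences numbered 47 higher and 45 lower, and at least 32-fold ones 17 and 17. The 4 arrays of one clone did not overlap those of the other for 7699 genes (38.6%). Arrays of a clone correlated at 0.996 to 0.998 over probe sets and arrays of different clones at 0.968 to 0.971, and the first principal component of the 8 arrays, which separated the clones, held 87.5% of the variance.

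Both clones carried the markers of CD8 T cells. The CD3 chains Cd3e, Cd3d and Cd3g were bright and not called in the fit of all 16 arrays, with means of 10.52 and 10.77, 10.67 and 10.52, and 12.15 and 12.20 in the conventional and unconventional clone. Cd3e and Cd3d lay near the threshold. Cd3e was called higher with centred arrays (0.32) and without unconventional replicate 3 (0.31) or 4 (0.31). Cd3d was called lower after quantile (-0.18) or cyclic loess normalization (-0.20). Both were called with an intensity trend, or with only genes of a mean of at least 6 in either clone tested. Both chains of the CD8 co-receptor were lower in the unconventional clone, 4.56-fold for Cd8a and 4.22-fold for Cd8b1. Cd8a stood at 12.59, 12.37, 12.45 and 12.60 on the conventional and at 10.25, 10.27, 10.40 and 10.33 on the unconventional arrays (difference -2.19, SE 0.08, adjusted p = 2.0e-14). Cd8b1 stood at 12.36, 12.23, 12.33 and 12.33 against 10.12, 10.23, 10.32 and 10.28 (difference -2.08, SE 0.07, adjusted p = 5.6e-15). The arrays of the clones did not overlap for either chain, and the unconventional level was still far above background. Cd4, the co-receptor of helper T cells, was near background in both (4.28 and 4.21). Trbv1, a variable segment of the receptor beta chain, stood at 13.14, 13.15, 13.11 and 13.16 in the conventional clone and at 4.88, 4.72, 4.71 and 4.35 in the unconventional clone (difference -8.48, SE 0.09, adjusted p = 4.5e-22). It was the 1 receptor or immunoglobulin segment called with a difference of at least 2-fold, of those with a symbol of their own. Xist, the RNA of the inactive X chromosome, stood at 6.35, 6.07, 5.95 and 5.59 against 3.69, 4.21, 3.98 and 3.88 (-2.05), while the Y chromosome genes Uty and Usp9y were near background in both clones.

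Of 10 B cell markers, 6 lay below the background level in both clones, among them Cd79a (3.49 and 3.15) and Jchain (3.31 and 3.20). Ebf1, a transcription factor of early B cells, was bright in a single clone, at 7.99, 7.73, 7.72 and 7.74 in the conventional and 4.09, 4.08, 3.67 and 3.92 in the unconventional clone. Of 21 macrophage and dendritic cell markers, 14 lay below it in both, among them the defining Csf1r (4.19 and 3.96) and Adgre1 (3.66 and 3.52). Tlr4, the receptor for bacterial lipopolysaccharide, was lower in the unconventional clone (-3.45, adjusted p = 4.4e-13) and Cd68 higher (1.44, adjusted p = 6.1e-09). Averaged over all members, the macrophage and dendritic cell markers lay between 4.69 and 4.74 on the conventional arrays and between 4.51 and 4.62 on the unconventional ones, and the B cell markers between 4.51 and 4.58 and between 4.05 and 4.15. Of 12 erythroid and granulocyte markers, 0 were called by limma (3 at an unadjusted p under 0.05, and up to 2 called in each direction under the alternatives) and 6 lay below the background level. Among 12 reference genes measured, 2 were called higher and 2 lower (33.3%, against 42% of all genes), and the largest difference was in B2m (-0.27). Ppia, the cyclophilin that binds cyclosporine A, differed by 0.05 (adjusted p = 0.5374).

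The largest differences were between a bright signal in one clone and a signal at or near background in the other. Scin, which codes for the actin-severing protein scinderin, stood at 4.32, 4.72, 4.54 and 3.87 on the conventional arrays and at 11.93, 12.15, 11.89 and 11.96 on the unconventional ones (difference 7.62, SE 0.12, adjusted p = 9.0e-20). Brinp3 followed with 3.84, 4.58, 4.30 and 3.97 against 10.87, 10.91, 10.90 and 10.92 (6.73). Scd1, the stearoyl-CoA desaturase that makes monounsaturated fatty acids, stood at 4.06, 4.34, 3.90 and 4.00 against 10.99, 10.57, 10.46 and 10.50 (6.55). For all 3 genes the conventional arrays lay around the background level and the unconventional arrays above 10. Cd200, a ligand that restrains myeloid cells, was higher by 6.11, Hpgds, the hematopoietic prostaglandin D synthase, by 5.94, and Pla2g4a, the cytosolic phospholipase A2 that releases arachidonic acid, by 5.46. The 20 largest higher genes also held the platelet chemokine Ppbp (5.74), the thiol reductase Ifi30 (5.70), the alcohol dehydrogenase Adh1 (5.66), Tm4sf1 (5.55), the DNA repair gene Alkbh3 (5.39), the transcription factor Foxp2 (5.10), Anxa3 (5.08), Dio2, which activates thyroid hormone (4.84), Dennd5a (5.74), Naalad2 (5.43) and Spats2 (5.36), beside Il18r1, Peg10 and Sgce, which are described with their groups. The SE of the 20 lay between 0.08 and 0.33, and the rule that chose them asked that the arrays of the clones did not overlap.

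The largest lower genes were bright in the conventional clone. Car5b, a mitochondrial carbonic anhydrase, was at 11.59, 11.45, 11.36 and 11.33 on the conventional arrays and 4.00, 3.73, 4.05 and 3.96 on the unconventional ones (difference -7.50, SE 0.09, adjusted p = 4.5e-22). Penk, the precursor of the enkephalin peptides, was at 13.90, 13.84, 13.89 and 13.84 against 6.57, 6.59, 6.79 and 6.57 (-7.24), the latter still above the background level. The 20 largest also held the integrin chain Itga1 (-6.77), the antiviral membrane protein Ifitm3 (-6.64), the cysteinyl leukotriene receptor Cysltr1 (-6.60), Csgalnact1, which starts chondroitin sulfate chains (-5.51), the semaphorin Sema3d (-5.40), Enpp6 (-5.40), Neurl3 (-5.13), Fgl2, a secreted immunoregulatory protein of activated T cells (-4.90), Taf9b (-4.97), the Ly6 family gene Ly6a2 (-5.51), Adgrg7 (-4.93) and the ribonuclease Zc3h12c (-4.81). Ifitm3 varied most among these, from 3.66 to 5.13 on the unconventional arrays (SE 0.34). The 20 further included Gimap3, Gimap4, Klra5, Klri2, Cd28 and Lcp2, which are described with their groups.

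**Figure D1:**
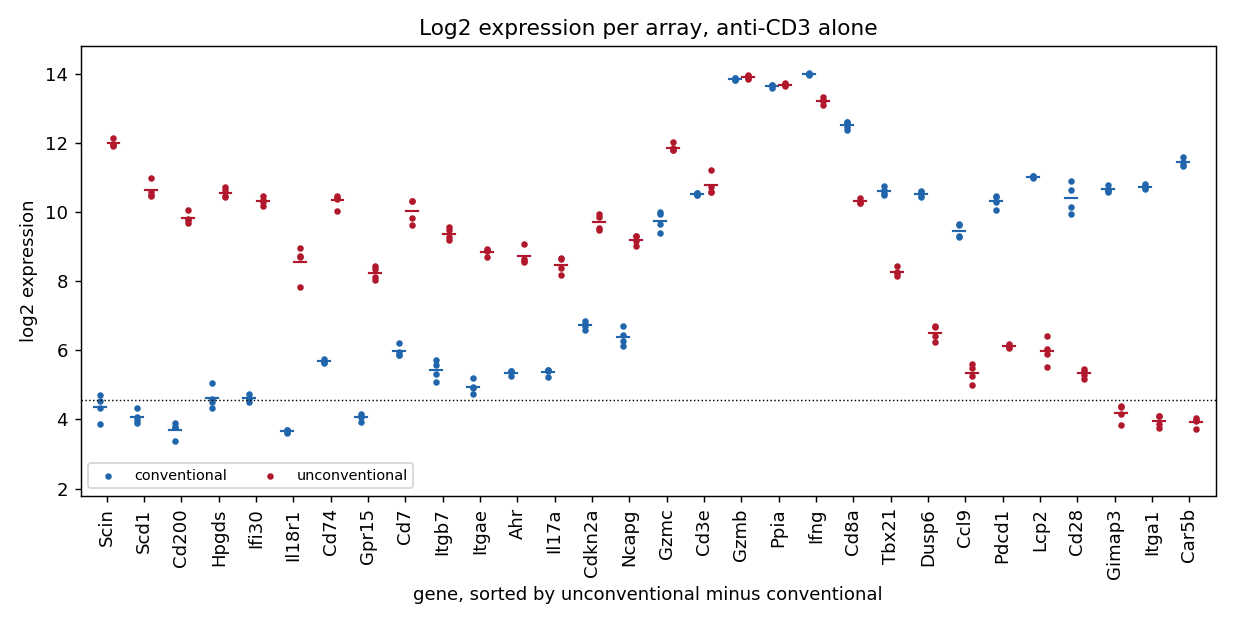
Log2 expression on each of the 4 conventional arrays (blue) and 4 unconventional arrays (red) with anti-CD3 alone for 30 genes named in the text, sorted by the difference; horizontal bars are group means and the dotted line marks the background level of 4.57. The arrays of the clones overlap for none of the genes shown except Gzmb and Ppia.

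Genes of cell division were higher in the unconventional clone throughout the lists. Of 39 mitosis and spindle genes measured, 39 were called higher in the unconventional clone, 37 of them at least 2-fold (94.9%, against 4.41% of all genes), with a median difference of 1.82 against -0.07 over all genes. Of 35 DNA replication genes, 35 were called higher and 29 at least 2-fold, with a median of 1.51. The condensin subunit Ncapg, which compacts mitotic chromosomes, stood at 6.69, 6.28, 6.43 and 6.13 against 9.30, 9.03, 9.30 and 9.16 (difference 2.81, SE 0.15, adjusted p = 4.4e-12). Bub1 and Bub1b, kinases of the spindle checkpoint, were higher by 2.52 and 1.99, the kinesin Kif4 by 2.21 and the proliferation marker Mki67 by 1.89. Among replication genes, thymidine kinase (Tk1) was higher by 2.36, the origin factor Mcm10 by 2.26 and the ribonucleotide reductase subunit Rrm2 by 2.02. Cdk1, the mitotic kinase, was well above background in both clones, at 8.65, 8.52, 8.68 and 8.36 against 10.33, 10.09, 10.21 and 10.22 in the unconventional clone (difference 1.66, SE 0.12, adjusted p = 4.1e-10).

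Promoter stretches are shown for members of both lists, to mark short elements that were searched for. A link between these elements and the clone difference was not tested. The sequences are the 150 bases before the annotated start, from the RefSeq promoter table of build GRCm38.p6, written 5′ to 3′ on the strand of the gene. Capitals mark, in the first 3, the cell cycle homology element (TTTGAA on either strand) and the CCAAT box (CCAAT on either strand), and in the next 3 an E2F element, searched as TTTCCCGC, TTTGGCGC, TTTCGCGC and TTTGCCGC on either strand, which can overlap each other. They were chosen for holding such a match among the listed genes.
Ncapg, chr5:45669775-45669924, plus strand: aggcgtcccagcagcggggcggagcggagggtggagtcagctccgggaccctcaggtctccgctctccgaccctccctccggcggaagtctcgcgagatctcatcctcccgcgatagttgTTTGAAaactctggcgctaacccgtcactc
Cdk1, chr10:69352913-69353062, minus strand: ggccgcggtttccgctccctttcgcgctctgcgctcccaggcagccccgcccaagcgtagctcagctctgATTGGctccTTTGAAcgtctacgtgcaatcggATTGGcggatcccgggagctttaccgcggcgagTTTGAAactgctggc
Cdc20, chr4:118437344-118437493, minus strand: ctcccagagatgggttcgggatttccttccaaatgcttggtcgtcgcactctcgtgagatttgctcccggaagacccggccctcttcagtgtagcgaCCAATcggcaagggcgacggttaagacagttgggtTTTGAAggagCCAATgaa
Mcm6, chr1:128359706-128359855, minus strand: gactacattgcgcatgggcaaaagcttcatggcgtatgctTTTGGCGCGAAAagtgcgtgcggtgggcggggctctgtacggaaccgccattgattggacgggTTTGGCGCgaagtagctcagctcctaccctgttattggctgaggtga
Mcm5, chr8:75109359-75109508, plus strand: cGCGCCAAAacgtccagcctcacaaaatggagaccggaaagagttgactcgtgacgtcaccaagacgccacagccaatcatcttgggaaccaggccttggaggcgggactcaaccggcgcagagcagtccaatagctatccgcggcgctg
Pola1, chrX:93632156-93632305, minus strand: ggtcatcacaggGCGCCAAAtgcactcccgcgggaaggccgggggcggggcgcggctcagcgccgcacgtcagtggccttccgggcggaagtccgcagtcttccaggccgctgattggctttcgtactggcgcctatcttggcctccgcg

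Over the whole 300 bases of the table, from 250 before to 50 after the start, TTTGAA was found for 24 of 33 mitosis genes with an entry (72.7%), for 5 of 30 replication genes (16.7%) and for 17.3% of the 15614 measured genes with an entry. The E2F element was found for 13 replication genes (43.3%), 3 mitosis genes (9.09%) and 3.48% of all. CCAAT was found for 66.7%, 63.3% and 41.7%. A match is a stretch of letters and not a measured binding site. Of the genes shown, the replicative helicase subunits Mcm5 and Mcm6 differed by 1.51 and 0.94, the polymerase subunit Pola1 by 1.66 and Cdc20, which activates the anaphase-promoting complex, by 1.29.

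Receptor signalling genes differed mostly the other way. Of 32 genes of proximal signalling, 12 were called and at least 2-fold lower in the unconventional clone and 2 higher (median -0.63). The adaptor SLP-76 (Lcp2), which couples ZAP70 to phospholipase C, stood at 11.02, 11.03, 11.04 and 10.98 on the conventional arrays and at 5.53, 6.04, 6.41 and 5.90 on the unconventional ones (difference -5.05, SE 0.13, adjusted p = 5.2e-17). Its partners were lower too, namely the GADS adaptor Grap2 (-2.29), the ADAP adaptor Fyb (-2.16) and Skap1, which binds ADAP (-2.14). Protein kinase C theta (Prkcq), which links the receptor to NF-kB, stood at 7.84, 7.35, 7.22 and 7.30 and near background at 3.85, 4.04, 3.87 and 3.80 (-3.54). The negative regulator Ubash3a was lower (-4.02), as was the transmembrane adaptor Sit1 (-2.11). Higher were the phosphatase SHP-1 (Ptpn6, 1.95), which dampens receptor signals, and the adaptor Sla2 (1.43). Of the kinases at the top of the cascade, Fyn was lower (-0.66, adjusted p = 2.0e-06) and Zap70 was not called (-0.13, adjusted p = 0.1987). Lck was not analysed here.

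The co-stimulatory receptor Cd28 was at 10.63, 9.95, 10.15 and 10.90 in the conventional clone and at 5.17, 5.46, 5.29 and 5.41 in the unconventional one (difference -5.08, SE 0.16, adjusted p = 1.3e-15). It belongs to 35 co-stimulatory and activation genes measured, of which 4 were at least 2-fold higher and 5 lower. Higher were osteoprotegerin (Tnfrsf11b, 4.51), the decoy receptor for RANK ligand, GITR (Tnfrsf18, 2.98), the adaptor SAP (Sh2d1a, 2.03) and the death receptor Tnfrsf10b (1.26). Lower were the OX40 ligand Tnfsf4 (-3.08), the early activation marker Cd69 (-2.03), Cd84 (-1.62) and Ly9 (-1.09).

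Calcium and NFAT genes differed in both directions. Of 37, 10 were called higher and 15 lower (67.6% in all), beside 38.6% and 28% of the genes with a mean of at least 6 over all arrays. The potassium channel Kcna3, which sustains calcium entry, was lower (-2.91), and so was the calcineurin inhibitor Rcan1 (-1.06), itself an NFAT target, and the channel Trpv2 (-1.65). The calcium channel Orai1 and the NFAT-binding protein Nfatc2ip were higher (1.03 and 1.25), as were the calcineurin catalytic subunits Ppp3ca (0.94) and Ppp3cb (0.92), while Ppp3cc was lower (-0.69). Abcb1a and Abcb1b, drug efflux pumps that can carry cyclosporine A, were lower in the unconventional clone (-1.23 and -0.84). Their part in the labelled sensitivity or resistance was not tested. Nfatc1 and Nfatc2 differed by -0.62 and 0.15 (adjusted p = 2.6e-06 and 0.2652).

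Downstream of Ras, feedback genes of the MAP kinase pathway were lower. Of 27 AP-1 and MAP kinase feedback genes, 9 were at least 2-fold lower and 1 higher (median -0.65). The ERK phosphatase Dusp6 stood at 10.60, 10.56, 10.45 and 10.42 against 6.23, 6.68, 6.41 and 6.71 (difference -4.00, SE 0.09, adjusted p = 7.8e-18). Dusp10, Dusp5 and Dusp4 differed by -1.95, -1.45 and -1.02, and the AP-1 genes Fosb, Fosl2 and Jun by -2.41, -1.12 and -0.98. Of the pair of Spred inhibitors of Ras, Spred2 was lower (-2.79) and Spred1 higher, at 4.49, 3.74, 4.27 and 4.13 against 7.88, 7.55, 7.64 and 7.39 (3.46). Among EGR, NR4A and anergy genes, diacylglycerol kinase alpha (Dgka) was lower (-3.43), as were Egr1 (-1.17), Egr2 (-1.16) and Nr4a2 (-1.17), and the Ras activator Rasgrp3 was higher (1.44). In that list 3 were at least 2-fold higher and 4 lower of 19. Of 22 NF-kB genes, 1 was at least 2-fold lower, the inhibitor Tnip3 (-2.94), and 0 were higher.

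Interferon gamma was bright in both clones, and interleukin 17 was higher in the unconventional one. Ifng stood at 14.01, 13.99, 13.99 and 13.95 in the conventional and at 13.09, 13.21, 13.23 and 13.32 in the unconventional clone (difference -0.77, SE 0.11, adjusted p = 8.9e-06), a gap of 1.71-fold at a bright level. Il17a stood low in the conventional clone at 5.44, 5.21, 5.40 and 5.44 and at 8.18, 8.66, 8.65 and 8.37 in the unconventional clone (difference 3.09, SE 0.12, adjusted p = 4.9e-14). Its neighbour on chromosome 1, Il17f, stood at 5.00, 5.28, 5.19 and 4.97 against 7.86, 7.98, 8.07 and 7.79 (2.81). Il3, a growth factor for myeloid cells, stood at 4.03, 4.26, 4.10 and 3.93 and varied from 5.80 to 8.01 in the unconventional clone (2.90). Tgfb3 was higher (3.17), and lower were lymphotoxin alpha (Lta, -2.18), the death ligand Fasl (-2.04), Tnf (-1.42) and Tnfsf10 (-1.60). The growth factor Il2 was higher by 0.58 (adjusted p = 0.0126) at 5.69 ± 0.20 (SD, n = 4) and 6.26 ± 0.53 (SD, n = 4), and by 0.37 without unconventional replicate 3, where the call was lost. Il10 and Il24, cytokines of the IL-10 family, were bright in both and differed by -0.49 and 0.34 (adjusted p = 0.0475 and 0.0207). The call of Il10 was lost when any array was left out (-0.53 to -0.40 over the 8 omissions), with centred arrays (-0.42) and after quantile normalization (-0.48). That of Il24 was lost after cyclic loess normalization (0.27) and without conventional replicate 3 (0.31) or unconventional replicate 4 (0.28). Of the type 2 cytokines, Il9 and Il13 were lower (-2.53 and -1.08) and Il5 near background in both clones (3.53 and 3.61). The alarmin Il1a was lower as well (-1.72). Of 18 type 1, growth factor and TNF family cytokines, 2 were at least 2-fold higher and 4 lower, and of 12 cytokines of the IL-10 and IL-17 families and relatives 2 and 1.

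Of 22 chemokine genes measured, 2 were at least 2-fold higher, the neutrophil attractants Cxcl2 (2.35) and Cxcl3 (1.74), and 4 were lower. Ccl9 stood at 9.64, 9.26, 9.30 and 9.64 in the conventional and 5.00, 5.50, 5.60 and 5.25 in the unconventional clone (difference -4.12, SE 0.14, adjusted p = 4.0e-15), and the monocyte attractant Ccl12 and the CCR6 ligand Ccl20 were lower (-3.09 and -2.18). Ccl4, a chemokine of activated T cells, stood at 12.57, 12.41, 12.54 and 12.70 against 9.80, 10.25, 10.35 and 10.36 (-2.36), while its relative Ccl3 differed by -0.63, and by -0.55 without unconventional replicate 1, where the call was lost. Ccl5 differed by -0.16 (adjusted p = 0.5268).

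Different integrins and homing receptors were bright in each clone. Itga1, the alpha chain of the collagen receptor VLA-1, stood at 10.76, 10.81, 10.69 and 10.66 in the conventional clone and at 4.09, 4.11, 3.76 and 3.87 in the unconventional clone (difference -6.77, SE 0.12, adjusted p = 2.5e-19). Itgae, which is CD103 and pairs with the beta 7 chain to bind E-cadherin on epithelium, stood the other way, at 4.74, 4.92, 5.19 and 4.95 against 8.70, 8.89, 8.88 and 8.94 (difference 3.90, SE 0.09, adjusted p = 2.2e-17), and so did Itgb7 itself, at 5.30, 5.71, 5.09 and 5.57 against 9.19, 9.56, 9.27 and 9.47 (3.95). No array of either clone overlapped the other clone's range for these 3 chains. The alpha chain of another collagen receptor, Itga2, was lower (-2.83), as were Itgb3 (-2.30), Itgav (-1.50), Crtam (-3.15) and Cd96 (-2.06), which bind nectins and nectin-like proteins, and the sialomucin CD43 (Spn, -2.05). E-cadherin (Cdh1, 2.10) and Itga6 (1.56) were higher. In all, 4 of 30 adhesion genes were at least 2-fold higher and 7 lower. Among 31 chemokine and related receptors, Gpr15, a receptor for homing to the colon, stood at 3.93, 4.17, 4.10 and 4.08 against 8.02, 8.35, 8.43 and 8.11 (difference 4.16, SE 0.10, adjusted p = 1.6e-17). Cxcr3, which guides type 1 effector cells, was lower (-2.06), as were Gpr171 (-1.49), the proton sensor Gpr65 (-1.13) and Gpr174 (-1.10), while Gpr18 was higher (1.57).

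Of the NK cell receptors and adaptors, 4 of 29 were at least 2-fold higher and 8 lower. Klra5, a Ly49 family receptor, stood at 12.55, 12.23, 12.31 and 12.50 in the conventional clone and at 5.40, 6.40, 6.86 and 6.57 in the unconventional clone (difference -6.09, SE 0.20, adjusted p = 4.0e-15); Ly49 genes are near copies of each other, so its signal may include relatives. Klri2 (-5.29), Klrg1, a mark of terminally differentiated effector cells (-4.05), the inhibitory receptor Lilrb4a (-3.60) and Klrd1, which codes for CD94 (-1.53), were lower. Higher were Cd7 (4.05), the SLAM family receptor Cd244a (3.04) and NKG2D (Klrk1, 1.36), at 9.35 ± 0.22 (SD, n = 4) and 10.71 ± 0.15 (SD, n = 4). Ncr1, a defining receptor of NK cells, stood at 3.65 and 3.51, and Klrb1c at 3.14 and 3.05, without a call.

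The main genes of killing were bright in both clones. Granzyme B (Gzmb) stood at 13.87, 13.83, 13.83 and 13.87 against 13.94, 13.85, 13.95 and 13.87, and its difference of 0.05 (SE 0.07, adjusted p = 0.5693) did not pass the test, with arrays that overlapped. Perforin (Prf1) was lower (-0.64) and granzyme A (Gzma) higher (0.30). Larger differences were in Gzmn, at 9.40, 9.10, 8.82 and 9.22 against 5.38, 5.12, 5.32 and 5.17 (-3.89), and Gzmc, at 10.00, 9.40, 9.66 and 9.95 against 11.86, 11.79, 12.02 and 11.79 (2.11). Both belong to the granzyme cluster on chromosome 14 that holds Gzmb, and its members are similar in sequence. Granzyme K (Gzmk, 1.35) and the granule transport GTPase Rab27a (1.66) were higher, and the fusion protein Stx11 (-1.07), cathepsin L (Ctsl, -1.42) and the protease inhibitor Serpinb9b (-1.40) lower.

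Inhibitory receptors and their ligands differed in both directions. Of 19 measured, 4 were at least 2-fold higher and 5 lower, together 47.4% against 7.74% of all genes. Near background in both clones were 5 of the 19 and 6605 of all 19938 genes. PD-1 (Pdcd1) stood at 10.47, 10.44, 10.28 and 10.06 in the conventional and 6.07, 6.11, 6.18 and 6.13 in the unconventional clone (difference -4.19, SE 0.13, adjusted p = 9.8e-16), and Ctla4 at 11.93, 10.77, 11.42 and 12.27 against 8.68, 8.43, 8.89 and 9.03 (-2.84). The PD-1 ligands Cd274 (-1.70) and Pdcd1lg2 (-1.11) were lower as well, and so was Vsir (-1.16). Cd200 (6.11), the ecto-nucleotidase CD73 (Nt5e, 2.87) and Btla (1.86) were higher. Havcr2, Lag3 and Tigit, receptors that often accompany PD-1, differed by 0.10, -0.15 and -0.37 (adjusted p = 0.2874, 0.1008 and 5.4e-04), and Lag3 was called without replicate 1 of the conventional (-0.19) or unconventional clone (-0.18).

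**Figure D2:**
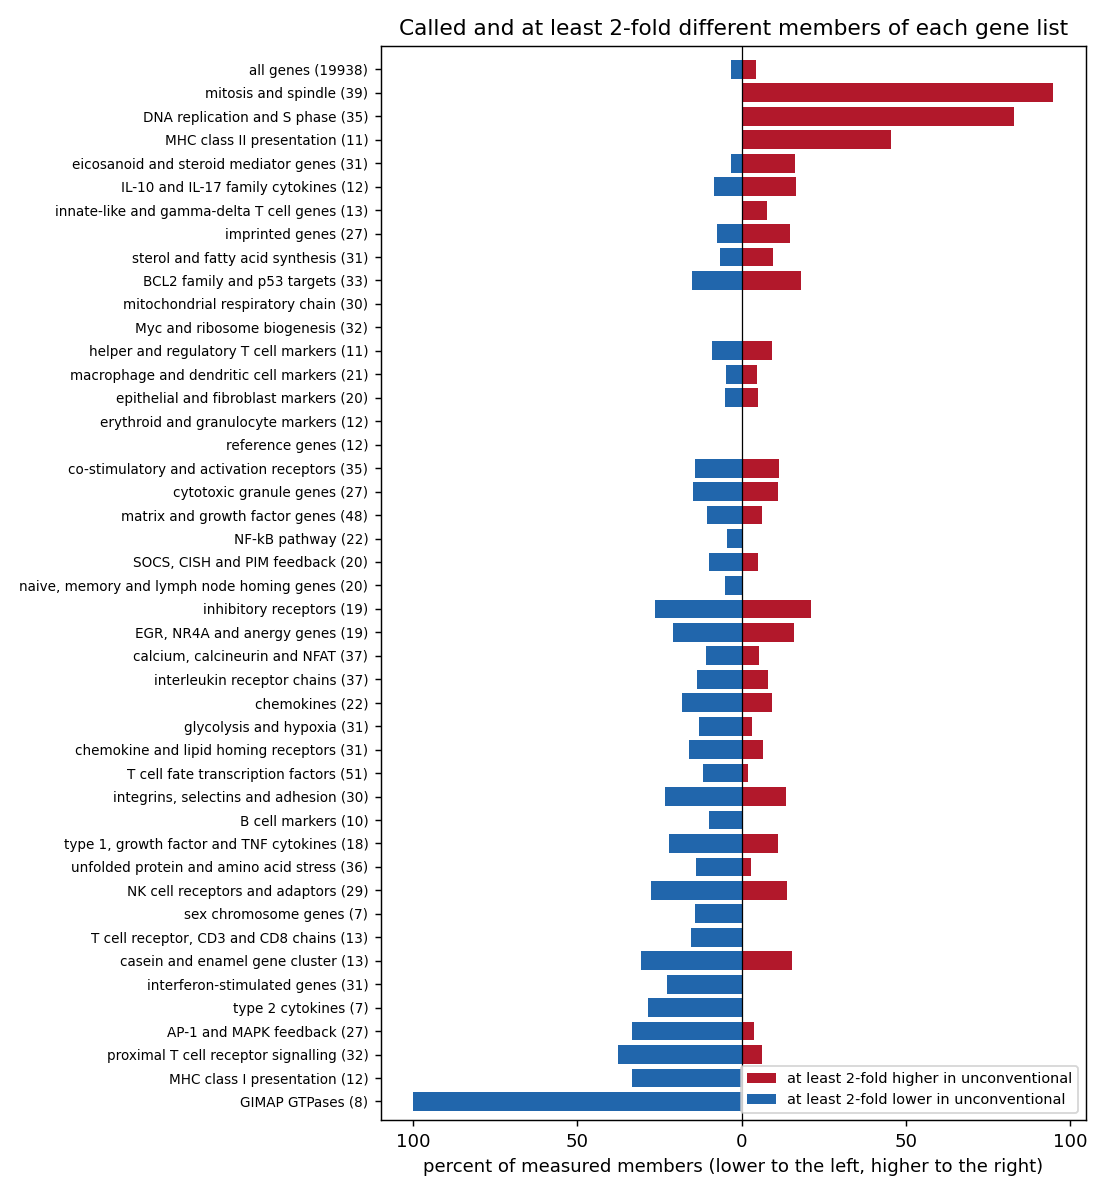
Share of the measured members of each gene list called and at least 2-fold higher in the unconventional clone (red, to the right) or at least 2-fold lower (blue, to the left), in percent of the list, with the number of measured members after the name. All genes, with 4.41% higher and 3.33% lower, are the first bar; the GIMAP list is 100% lower and the mitosis list 94.9% higher.

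Cytokine receptors and their signalling chains differed in both directions. Il18r1, a chain of the interleukin 18 receptor, stood at 3.70, 3.69, 3.60 and 3.65 in the conventional and 7.83, 8.70, 8.96 and 8.74 in the unconventional clone (difference 4.90, SE 0.19, adjusted p = 5.5e-14), while its partner Il18rap was lower (-1.32). Il10ra was lower (-2.23) and Il10rb higher (1.50), and the decoy receptor Il1r2 was higher (1.88). The shared chain gp130 (Il6st, -1.56) and Il15ra (-1.16) were lower, and Il2ra, the alpha chain of the interleukin 2 receptor, was bright and not called (0.09, adjusted p = 0.4017). Stat4, which carries interleukin 12 signals, stood at 8.87, 8.52, 8.78 and 9.19 against 11.01, 11.08, 11.20 and 11.00 (2.23). Socs3 (-2.29) and Jak2 (-1.61) were lower.

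Of 51 transcription factors of T cell fate, 6 were at least 2-fold lower and 1 higher. The higher factor was the aryl hydrocarbon receptor Ahr, a ligand-activated factor of barrier T cells, at 5.40, 5.37, 5.41 and 5.25 against 9.06, 8.65, 8.56 and 8.60 (difference 3.36, SE 0.11, adjusted p = 4.9e-15). T-bet (Tbx21), the type 1 regulator, stood at 10.75, 10.54, 10.64 and 10.49 against 8.14, 8.24, 8.44 and 8.27 (difference -2.33, SE 0.07, adjusted p = 1.1e-15), lower but well above background. Zeb2, which acts with T-bet in terminal effector cells, stood at 8.69, 8.63, 8.58 and 8.58 against 4.81, 4.91, 4.92 and 4.88 (-3.74). Etv5 (-2.49), Hlx (-1.89), Irf8 (-1.65) and Pparg (-1.29) were lower too. Gata3, the type 2 regulator, was higher by 0.75 (adjusted p = 2.0e-06). Zbtb16, which marks innate-like T cells, was not called (4.87 and 4.58, adjusted p = 0.0856), but was called lower (-0.29) when the 8 arrays with anti-CD3 alone were fitted without the others. Tcf7 was not analysed here. Eomes was near background in both (4.46 and 3.95). Of 20 naive, memory and lymph node homing genes, 1 differed at least 2-fold, Cxcr3 above, and 9 lay below the background level in both clones.

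The GIMAP genes, small GTPases of lymphocyte survival that lie side by side on chromosome 6, were lower in the unconventional clone, 8 of 8 by at least 2-fold, with a median of -2.91. Gimap3 stood at 10.62, 10.64, 10.58 and 10.77 in the conventional and near background at 4.36, 4.39, 3.83 and 4.16 in the unconventional clone (difference -6.47, SE 0.10, adjusted p = 8.2e-20). Gimap4 was likewise near background there, at 9.25 ± 0.24 (SD, n = 4) against 4.05 ± 0.09 (SD, n = 4). Gimap9, Gimap8, Gimap7, Gimap6 and Gimap5 differed by -4.49, -3.19, -2.62, -2.30 and -1.92. Gimap1, with the smallest difference of the 8, stood at 10.74, 10.75, 10.68 and 10.48 against 9.44, 9.56, 9.65 and 9.57 (-1.10).

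Genes of the MHC class II pathway, which presents peptide to CD4 T cells, were higher in the unconventional clone. Of 11 genes, 5 were at least 2-fold higher and 0 lower. The alpha chain H2-Aa stood at 4.23 ± 0.25 (SD, n = 4) in the conventional and 8.82 ± 0.39 (SD, n = 4) in the unconventional clone (difference 4.59, SE 0.17, adjusted p = 3.1e-14), the beta chains H2-Ab1 and H2-Eb1 were higher by 3.59 and 2.65, and the invariant chain Cd74 stood at 5.70, 5.75, 5.64 and 5.66 against 10.04, 10.39, 10.44 and 10.47 (4.64). Ifi30, which reduces antigens in lysosomes, stood at 4.74, 4.51, 4.62 and 4.63 against 10.29, 10.35, 10.17 and 10.46 (difference 5.70, SE 0.08, adjusted p = 2.3e-20). The transactivator Ciita was higher by 0.30 (adjusted p = 0.0313) at levels of 4.87 and 5.16, a call lost without conventional replicate 1 or 2 or unconventional replicate 3 or 4 (0.26 to 0.36 over the 8 omissions). The loading chain H2-DMa was higher by 0.42. B cells, macrophages and dendritic cells also express class II. Of their markers, 6 of 10 and 14 of 21 were near background in both clones, among them Cd79a of B cells and Csf1r and Adgre1 of macrophages. Some markers of dendritic cells were above it in the conventional clone or in both, with means of 8.91 and 9.28 for Itgax, which activated T cells also express, 5.28 and 5.12 for Zbtb46 and 4.86 and 4.55 for Flt3. Itgax was higher by 0.37 and Cd68 by 1.44, and the part of such cells in the class II result was not tested. Promoter stretches of these chains are printed from the same RefSeq table, to show the CCAAT box of class II promoters, in capitals on either strand.
H2-Aa, chr17:34287824-34287973, minus strand: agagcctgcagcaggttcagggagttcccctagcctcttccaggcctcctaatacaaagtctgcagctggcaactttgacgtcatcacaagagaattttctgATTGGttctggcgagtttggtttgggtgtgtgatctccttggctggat
H2-Eb1, chr17:34305717-34305866, plus strand: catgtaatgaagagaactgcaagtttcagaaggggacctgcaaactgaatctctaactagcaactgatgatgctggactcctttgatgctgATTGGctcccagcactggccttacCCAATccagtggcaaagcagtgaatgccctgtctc

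CCAAT on either strand was found for 6 of 8 class II genes with an entry and for 41.7% of all genes, as above. Class I genes differed less and mostly downward. Psmb9, an immunoproteasome subunit, was lower (-1.43), as were the peptide transporters Tap1 (-1.12) and Tap2 (-1.01) and the transactivator Nlrc5 (-1.02), whereas the proteasome activators Psme1 (0.94) and Psme2 (0.83) were higher. Of 12 class I genes, 4 were at least 2-fold lower, and 2 without conventional replicate 2 or conventional replicate 3. With centred arrays 2 were lower and 1 higher. Of 31 interferon-stimulated genes, 15 were called lower, 7 of them at least 2-fold, and 0 higher (1 with centred arrays); the lower ones were led by Isg20 (-2.55), Trim30a (-2.54), Irgm1 (-2.10) and Gbp7 (-1.94).

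In the metabolic lists, Scd1 was the widest difference, and the lipid genes Fads1 (-2.28) and Elovl6 (-1.50), which desaturate and elongate fatty acids, were lower, while Acss2 (1.02) and the sterol enzyme Fdft1 (1.00) were higher. Of 31 sterol and fatty acid genes, 10 were called higher and 8 lower (58.1% in all), beside 38.6% and 28% of the genes with a mean of at least 6 over all arrays. The glucose transporters Slc2a3 (-2.86) and Slc2a1 (-1.36), the aldolase Aldoc (-2.16) and the hypoxia gene Car9 (-1.39) were lower by at least 2-fold among 31 glycolysis and hypoxia genes, and Ndrg1 was higher (1.06). Called differences of 2-fold numbered 0 among 30 respiratory chain genes and 0 among 32 Myc and ribosome biogenesis genes, although 18 of the latter were called higher (median 0.22), with Gnl3 at 0.83. In the stress response list, the chaperone Dnajb9 stood at 5.07, 4.60, 4.02 and 4.07 against 9.13, 8.93, 8.91 and 8.69 (difference 4.47, SE 0.16, adjusted p = 1.3e-14). In the same list 5 of 36 genes were at least 2-fold lower, namely Sesn2 (-2.75), the sensor Atf6 (-1.94), Atf3 (-1.54), Herpud1 (-1.07) and Ddit4 (-1.06). In the eicosanoid and steroid list, 5 of 31 were at least 2-fold higher, namely Hpgds and Pla2g4a above, the steroid-making enzyme Cyp11a1 (2.47), the lipoxygenase Alox15 (1.48) and Akr1c18 (1.28), which inactivates progesterone, and the prostaglandin E2 receptor Ptger2 was lower (-2.00).

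Genes of survival and cell cycle arrest differed in both directions, 6 of 33 at least 2-fold higher and 5 lower. Cdkn2a, which codes for the cell cycle inhibitor INK4A and for ARF, stood at 6.60, 6.70, 6.76 and 6.86 against 9.54, 9.86, 9.49 and 9.95 (difference 2.98, SE 0.16, adjusted p = 9.2e-12). Gadd45g (3.27) and Gadd45a (1.90) were higher, and the p53 targets Phlda3 (-3.01) and Pmaip1 (-1.84) and the caspase 8 inhibitor Cflar (-1.50) lower. Bcl2 itself differed by -0.37 (adjusted p = 0.0541) and was called lower without conventional replicate 2 (-0.50), conventional replicate 3 (-0.46) or unconventional replicate 4 (-0.49). With all arrays it was called lower after quantile (-0.45) or cyclic loess normalization (-0.44) and with an intensity trend. The same held with only genes of a mean of at least 6 in either clone tested.

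Among the imprinted genes, which are expressed from the allele of a single parent, the neighbours Peg10 and Sgce on chromosome 6 were both bright in the unconventional clone alone. Peg10 stood at 5.14, 4.69, 5.22 and 5.26 against 10.86, 10.38, 10.57 and 10.22 (5.43) and Sgce at 4.87, 4.28, 4.24 and 4.52 against 9.07, 9.47, 9.43 and 9.44 (4.87). Mest (2.78) and Impact (2.15) were higher as well, and Igf2 (-1.51) and Igf2r (-1.46) lower, among 27 measured. Of 13 genes of the casein and enamel cluster on chromosome 5, 4 were at least 2-fold lower, 2 higher, and 7 lay near background in both clones. The milk protein gene Csn2, beta casein, stood at 11.62, 11.41, 11.46 and 11.76 against 7.05, 6.94, 7.13 and 7.24 (difference -4.47, SE 0.13, adjusted p = 8.5e-16), and the caseins Csn1s1 (12.40 and 10.03) and Csn3 (10.50 and 8.13) and the enamel gene Ambn (8.70 and 4.57) were lower too. Sult1e1 (2.42) and Amtn (2.10) were higher. The proteoglycan lumican (Lum), a matrix gene of fibroblasts, stood at 10.24, 9.86, 9.65 and 9.72 against 6.20, 6.44, 5.87 and 6.05 (-3.73), while the fibroblast genes Dcn and Pdgfra were near background in both (3.98 and 4.19, 4.14 and 4.23). Anxa1 (-2.36), Anxa2 (-1.70), Inhba (-2.31) and Olfm4 (-2.20) were lower, and Vcam1 (2.77), Pdgfb (2.56) and Mmp10 (1.15) higher.

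Grouped by chromosome, with the gene table of assembly GRCm38.p6 used for names and order, the brighter genes showed an excess of higher calls on chromosome 14 and of lower calls on chromosome 1 in the unconventional clone. Over the 8992 genes with a mean level of at least 6 over all 16 arrays, the median difference was 0.07 and 38.6% were called higher and 28% lower. On chromosome 14 the median of 319 genes was 0.52 (1.44-fold), with 70.2% called higher and 10.7% lower. On chromosome 1 the median of 521 genes was -0.30, with 15.5% called higher and 58% lower. Over all genes of these chromosomes, those near background included, the medians were -0.0056 and -0.14 (-0.07 over all 19938), with 246 of 699 genes called higher and 102 lower on chromosome 14, and 114 of 1122 higher and 413 lower on chromosome 1. Among the brighter genes the other autosomes and X had medians between -0.07 and 0.17. Measured per array as the median deviation of the chromosome's genes from their mean over the 8 arrays, chromosome 14 was at -0.19, -0.27, -0.31 and -0.27 in the conventional and at 0.23, 0.31, 0.26 and 0.26 in the unconventional clone, and chromosome 1 at 0.19, 0.17, 0.13 and 0.14 and -0.13, -0.14, -0.18 and -0.16. The arrays of the clones did not overlap on either chromosome, nor on any other chromosome except 9, 10 and 12, where the medians differed little. The 4 arrays of each clone lay close together.

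**Figure D3:**
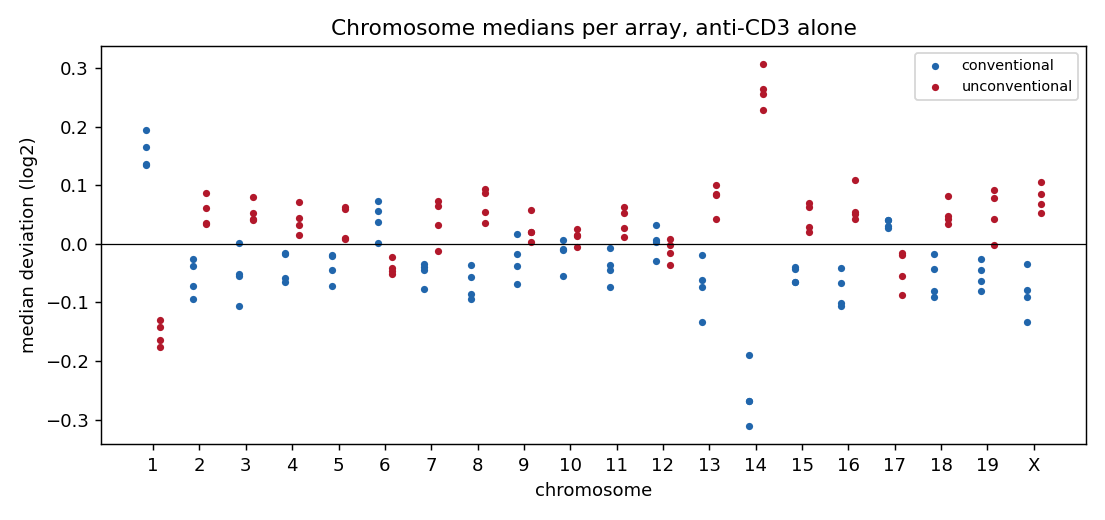
Median deviation, in log2 units, of the genes of each chromosome from their mean over the 8 arrays, for the 4 conventional (blue) and 4 unconventional (red) arrays with anti-CD3 alone, genes with a mean of at least 6. Chromosome 14 is the widest gap upward and chromosome 1 the widest downward.

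The same clones with cyclosporine A were measured on other arrays, which gives the clone difference with the calcineurin inhibitor present. Of 880 genes at least 2-fold higher with anti-CD3 alone, 846 were called higher there too (96.1%), 9 lower and 25 were not called. Of 663 lower genes, 616 were called lower again (92.9%), 9 higher and 38 not called. Over all called genes the shares were smaller: of 4048 higher genes 3233 were called higher again (79.9%) and 132 lower, and of 4328 lower genes 2709 were called lower again (62.6%), 96 higher and 1523 not called. With cyclosporine A, 8821 of all genes were called (44.2%), 1961 of them at least 2-fold different (9.84%), and across genes the differences in both conditions correlated at r = 0.86 (Spearman's rho 0.709), with genes not independent and no array shared. Large differences present in both conditions were Scin (7.59 with the drug), Car5b (-7.78), Scd1 (6.69) and Gimap3 (-5.92). Over the genes with a mean of at least 6, chromosome 14 had a median of 0.51 and chromosome 1 of -0.32.

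The change of the clone difference between the conditions was called for 3247 genes (16.3%). Of the 880 genes at least 2-fold higher with anti-CD3 alone, 161 had a called change to a smaller and 243 to a larger difference with the drug. Of the 663 lower genes these numbered 223 and 135. Among the 3247 were genes of secreted proteins that differed between the clones with anti-CD3 alone and by little with the drug. Il17a differed by 3.09 without and -0.23 with cyclosporine A (adjusted p = 1.0e-10 for the change), with means of 5.22 and 4.99 under the drug. Il17f went from 2.81 to 0.02 (adjusted p = 1.0e-09 for the change), Il3 from 2.90 to -0.13 (adjusted p = 8.4e-06 for the change), Ccl9 from -4.12 to -0.30 (adjusted p = 8.9e-11 for the change) and Lum from -3.73 to -0.15 (adjusted p = 4.9e-10 for the change). Other gaps were wider with the drug: Ifng went from -0.77 to -2.62 (adjusted p = 5.9e-08 for the change), Ccl4 from -2.36 to -4.75 (adjusted p = 2.4e-06 for the change) and the cyclin Ccna2 from 2.05 to 4.73 (adjusted p = 4.4e-08 for the change). The 39 mitosis genes had a median difference of 3.10 with the drug against 1.82 without it. The sign turned with at least 2-fold on both sides for the genes Csta3 (1.28 and -1.66) and Eif5a2 (-1.00 and 1.50), named here after their values were seen.

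**Figure D4:**
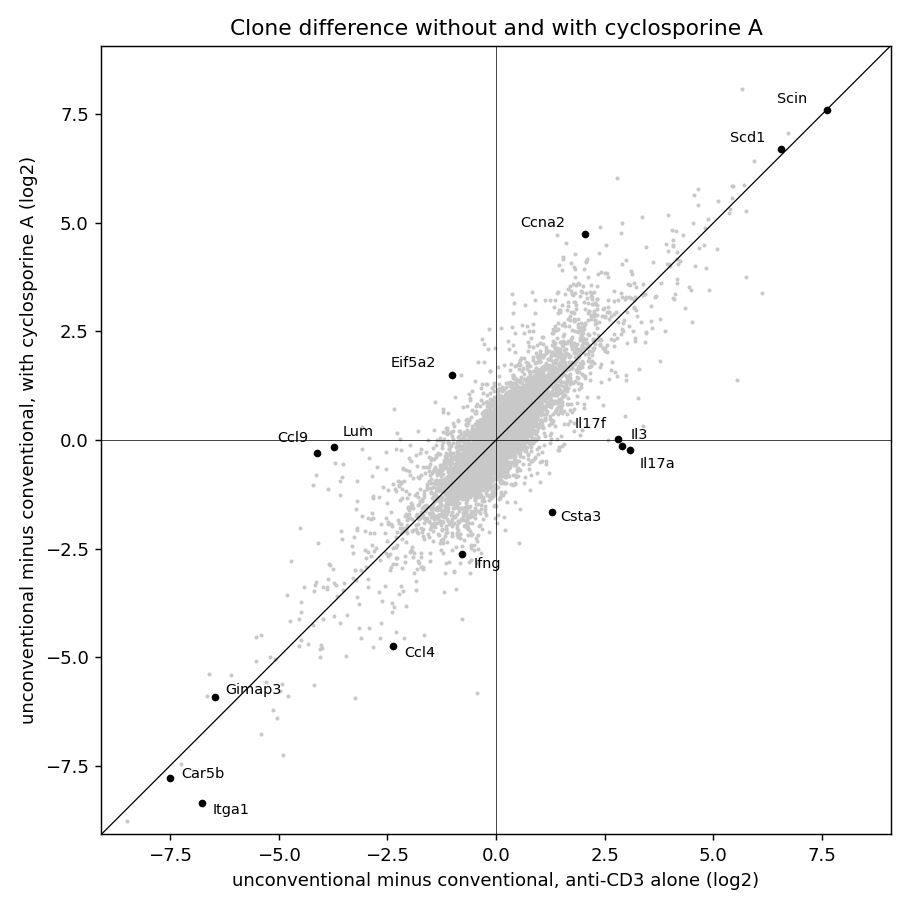
Difference between the clones (unconventional minus conventional, log2) with anti-CD3 alone (x axis) and with anti-CD3 and cyclosporine A (y axis) for all 19938 genes, grey; named genes are labelled and the line marks equal differences. Most genes called and at least 2-fold different with anti-CD3 alone have the same sign on both axes, many at a changed size. Il17a, Il17f, Ccl9 and Lum lie near 0 on the y axis.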

How the data were processed

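RNA of 16 samples was hybridised to Affymetrix mouse gene arrays. Per the submitters' processing notes, which name GCOS, Partek 6.2 and RMA, the deposited values are log2 expression per probe set; background correction, build and annotation are not stated there or in the labels. RMA brings arrays to a common distribution of probe values, which can hide a global change. Array medians lay between 5.16 and 5.30. Of 28853 probe sets, 21789 carry a single symbol in the platform annotation (99.6% matched by Entrez ID to RefSeq genes of GRCm38.p6); 19938 genes were tested, each by its probe set of highest mean signal on the 16 arrays.

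Groups came from the titles. With limma 3.58.1 (R 4.3.3; lmFit and eBayes, two-sided) 4 group means were fitted to the 16 arrays, leaving 12 residual degrees of freedom, with Benjamini-Hochberg adjustment over all genes. On simulated data for this comparison (19938 genes), 41, 49, 50 and 50 of 50 genes changed by 0.5, 1, 2 and 4 (log2) were recovered, with 11 false calls. In the simulation 200 genes were changed and the noise was independent between genes and arrays. Its false calls therefore do not estimate those in these data. Same-numbered arrays of the clones with anti-CD3 alone did not pair (correlations of deviations -0.129 to 0.0687). The members and lists were chosen with earlier results of these data known. Named were the 20 largest differences in each direction among called genes without overlap (no receptor segments, predicted genes or olfactory receptors), receptor segments at least 2-fold different, at most 6 genes of a list, those with the largest differences, and a fixed set of T cell genes. Other named genes were added as known members of the pathways after their values were seen. Motifs were searched in the RefSeq promoter table. The alternatives were other normalizations, filters, variance models, probe set rules, the replicate block and leaving out each array; list counts, chromosome medians and blocks under them were added after seeing the data.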

Additional observations from a re-analysis of the deposited data

Results flagged for a closer look

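For every named gene, the 4 arrays of each clone were searched for an array far from the other 3, which was found in 29 of 568 groups; chance gives such an array in about 1 in 20 groups. All values are log2 expression with anti-CD3 alone. Replicate 1 of the conventional clone was high for Ebf1 (7.99, others 7.72 to 7.74) and H2-Aa (4.60, others 4.10 to 4.11) and low for Inhba (8.52, others 8.64 to 8.66). Replicate 2 of the conventional clone was low for Fosl2 (8.92, others 9.14 to 9.17) and Il17a (5.21, others 5.40 to 5.44). Replicate 3 of the conventional clone was high for Il10rb (4.73, others 4.51 to 4.54). Replicate 4 of the conventional clone was low for Ccna2 (8.25, others 8.52 to 8.56) and Itgav (11.32, others 11.46 to 11.48). Replicate 1 of the unconventional clone was high for Ahr (9.06, others 8.56 to 8.65), Cd84 (4.14, others 3.84 to 3.86), Il1r2 (7.16, others 6.70 to 6.77), Klrd1 (8.39, others 8.11 to 8.14) and Tnfrsf10b (9.33, others 9.05 to 9.09) and low for Btla (5.44, others 5.72 to 5.77), Dcn (3.92, others 4.26 to 4.29), Nkg7 (12.09, others 12.61 to 12.62), Pla2g4a (9.21, others 9.55 to 9.60), Psme1 (11.34, others 11.51 to 11.53), Sgce (9.07, others 9.43 to 9.47) and Tnf (9.55, others 10.12 to 10.12). Replicate 2 of the unconventional clone was low for Sh2d1a (5.33, others 6.12 to 6.25). Replicate 3 of the unconventional clone was high for Csgalnact1 (4.78, others 4.20 to 4.22), Gbp7 (6.25, others 5.83 to 5.89), Gzma (13.41, others 13.28 to 13.30), Penk (6.79, others 6.57 to 6.59) and Vcam1 (8.09, others 7.82 to 7.86). Replicate 4 of the unconventional clone was high for Slc2a1 (11.19, others 10.52 to 10.63) and Tk1 (10.25, others 9.88 to 9.93) and low for Foxp2 (9.40, others 9.70 to 9.74).

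The clone difference without minus that with cyclosporine A passed the test for Ccl4 (2.38), Ccl9 (-3.83), Ccna2 (-2.69), Csta3 (2.93), Eif5a2 (-2.51), Gimap3 (-0.55), Ifng (1.85), Il17a (3.32), Il17f (2.79), Il3 (3.03) and Lum (-3.58), all on the log2 scale.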

How the results depend on the processing

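The counts of called genes, of genes at least 2-fold different and of differences also called with cyclosporine A stayed within 1.5 times their values when arrays were centred, normalized by quantiles or by cyclic loess, fitted with an intensity trend or a robust variance, fitted from the 8 arrays alone where that gives the count, or averaged over probe sets. With only genes tested whose mean with anti-CD3 alone was at least 6 in either clone, 3839 genes were called higher and 2833 lower. With all genes tested these numbered 4048 and 4328. Tested against a 2-fold difference in place of 0, 572 genes were called higher and 400 lower, and 473 and 281 of them were called in the same direction with cyclosporine A by that test, whose demand is stricter by construction. Leaving out single arrays gave 3787 to 4035 genes called higher, 3613 to 4534 lower, 861 to 913 at least 2-fold higher and 635 to 675 at least 2-fold lower, and the genes also called with cyclosporine A numbered 830 to 875 and 594 to 626 of the 2-fold ones and 3065 to 3241 and 2431 to 2744 of all. With the replicate number as a block, 8317 genes were called, 8139 of them also without it. Same-numbered arrays of the clones with anti-CD3 alone deviated together at correlations of -0.129 to 0.0687. Pairing with the arrays with cyclosporine A was not examined. Of 4800 comparisons of 284 named genes with 17 alternatives, 4747 kept direction and side of the threshold, 28 lost a call and 21 gained one. The sign turned in 4 comparisons, all of genes not called: Cd4 0.0012 (centring), 0.020 (quantiles), 0.037 (cyclic loess) and Trgv1 0.013 (centring). Of 2992 comparisons of the 176 counts of 44 gene lists with the same alternatives, 2876 stayed within 1.5 times. Another 92 fell further and 24 rose further. The falls numbered 15 with only genes of a mean of at least 6 in either clone and 12 without conventional replicate 3. They numbered 10 without conventional replicate 2 and 9 after cyclic loess. The median of chromosome 14 lay between 0.46 (cyclic loess) and 0.59 (centring), and that of chromosome 1 between -0.36 (quantiles) and -0.23 (centring). The number of arrays limits the precision, and near the background level a difference is compressed.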

Other observations

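Genes of innate-like and helper T cells were measured beside the main lists. Of 13 innate-like and gamma-delta T cell genes, 1 was at least 2-fold higher in the unconventional clone, Il18r1, and 0 were lower; Nkg7, a protein of cytotoxic granules, differed by -0.86 (adjusted p = 2.0e-06). The gamma chain segment Trgv1 stood at 9.62 and 9.57 without a call, while Sox13, a factor of gamma-delta T cells, was not called at 6.56 and 6.44. Ikzf2, which codes for Helios, was higher by 0.69. Of the cytokine receptor chains and feedback genes, 3 of 37 and 1 of 20 were at least 2-fold higher and 5 and 2 lower.

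Along the chromosomes, neighbouring genes with a mean of at least 6 were taken in blocks of about 25, a division chosen after seeing the data. On chromosome 14 all 13 blocks had a positive median clone difference, from 0.23 to 1.21, and the last one, from Slain1 to Tmtc4, had the highest, with 24 of 25 genes called higher and a median of 1.30 with cyclosporine A. On chromosome 1 all 21 blocks were negative, from -0.59 to -0.08. A block on chromosome 12, from Asb2 to Wdr25, had a median of -0.81, with 19 of 24 genes called lower and a median of -0.97 with cyclosporine A. Neighbouring blocks were also all negative on chromosome 6 from Tes to Tex261, down to -0.46. The same held on chromosome 17 from Akap8 to Foxp4, down to -0.41. On chromosome 13 the block from Zfp322a to Irf4 had a positive median of 0.51. These are values of the blocks, and their cause was not tested.

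Probe sets with no symbol or with several numbered 5443 and 1621 of 28853; 1976 of them were called between the clones, 155 at least 2-fold higher and 116 lower in the unconventional clone, and their genes are not named here.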
